A study of Mus musculus with 9 samples.

Results

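Ctla2a and Ctla2b, a pair of paralogs that encode inhibitors of cysteine proteases, were examined in cultured mouse microglia together with the cystatin genes Cst3 and Cstb and the cathepsin genes Ctsb, Ctsc, Ctsd, Ctsl, Ctss and Ctsz. These 10 genes were picked by symbol with earlier results of the same arrays known, out of 17097 genes measured. The array's annotation gives them 20 probe sets, and 0 of the 20 carry several symbols. For each gene the probe set with the highest mean over 9 arrays stands for the gene, and the others are described beside it. Ctla2a and Ctla2b entered the group because they were higher in glioma-conditioned medium, so their difference from untreated cells is described and not tested.

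Cathepsins are the proteases of the endosome and lysosome. Most of them, Ctsb, Ctsc, Ctsl, Ctss and Ctsz included, cut with a cysteine in the active site, whereas Ctsd is an aspartic protease. They degrade proteins that the cell takes up, trim antigens and the invariant chain for MHC class II, and are made as inactive precursors whose propeptide blocks the active site. Cystatins are small proteins that occupy the active site of cysteine cathepsins, Cst3 as a secreted inhibitor and Cstb, also called stefin B, inside the cell. The Ctla2 proteins resemble the free propeptide of a cathepsin L-like protease, inhibit such proteases, and were described in mouse T cells and mast cells.

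The arrays measured primary microglia from cortices of newborn C57BL/6J mice (P0-P2). GCM LN18 and GCM U87 are the media in which the established human glioblastoma lines LN18 and U87-MG had been kept, and microglia were treated with either for 6 h or left untreated (control), with 3 arrays per group. Medium of human cells acted on mouse cells, and whether the untreated dishes were also given new medium is not given in the sources used here. The design text derives the 3 replicates from separate cortical cultures. All values below are log2 signals, so a difference of 1 is a 2-fold change, and n = 3 in each group. In the deposited table the replicate numbers have equal means for 100% of probe sets. The SDs below are those of that table and need not equal the spread of separate cultures. A low array in a group also goes with a higher sum of the same-numbered arrays in the other groups.

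Among these genes, the large differences from untreated microglia lay in the Ctla2 pair and in the further probe sets of Ctsc. Ctla2b averaged 3.75-fold higher in GCM LN18 and 2.99-fold higher in GCM U87 than in control, and Ctla2a 3.40-fold and 2.75-fold. Ctsc, which encodes dipeptidyl peptidase I, a cathepsin that activates granule serine proteases, rose 2.53-fold and 2.81-fold in GCM LN18 on its 2 dimmer probe sets and differed by 1.15-fold, short of the test, on its brightest one. The other cathepsins and both cystatins differed from control by at most 0.10 log2 units in either medium on the probe sets that stand for them.

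Ctla2a (chr13:60934155-60936625) and Ctla2b (chr13:60895351-60897934) are neighbours on the minus strand of mouse chromosome 13 in the GRCm38.p6 build, with 36220 bases and 1 other annotated gene, Tpbpb, between them. They are among 12 cathepsin and Ctla2 genes of that chromosome, which lie from 60798250 to 64370772. Ctsl (chr13:64361890-64370772) is at the far end, and other genes within this span were not counted. The remaining members are scattered, with Cst3 and Ctsz on chromosome 2, Ctss on 3, Ctsc and Ctsd on 7, Cstb on 10 and Ctsb on 14. The promoters of the pair are shown because both genes were higher in both media. Each is RefSeq sequence of GRCm38.p6 from 250 bases before to 50 bases after an annotated start, given 5′ to 3′ on the minus strand. The Ctla2a window is chr13:60936576-60936875 and the Ctla2b window chr13:60897398-60897697. All of the Ctla2b window lies inside the span of Ctla2b given above, so its start is not the outermost 5′ end of that gene. Ctla2a has 2 windows, of which the first is shown, and the second, chr13:60936517-60936816, held as many matches. Capitals mark CAGAC or its reverse complement GTCTG, the core letters of Smad-binding elements, and TGACTCA, the letters of an AP-1 site.
Ctla2a: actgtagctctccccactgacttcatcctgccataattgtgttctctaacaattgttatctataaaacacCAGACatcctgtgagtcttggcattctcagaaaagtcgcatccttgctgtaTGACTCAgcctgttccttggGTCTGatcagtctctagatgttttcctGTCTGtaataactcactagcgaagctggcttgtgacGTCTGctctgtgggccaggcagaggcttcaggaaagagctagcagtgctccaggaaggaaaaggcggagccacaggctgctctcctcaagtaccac
Ctla2b: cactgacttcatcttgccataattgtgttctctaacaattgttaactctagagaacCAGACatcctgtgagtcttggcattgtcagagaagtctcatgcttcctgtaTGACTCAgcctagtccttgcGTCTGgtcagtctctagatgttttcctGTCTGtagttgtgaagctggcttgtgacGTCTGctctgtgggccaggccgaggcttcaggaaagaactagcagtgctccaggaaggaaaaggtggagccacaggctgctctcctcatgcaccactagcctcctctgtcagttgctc
Aligned to each other, the windows matched at 256 of 286 columns (89.5%), with 22 mismatches and 8 gap columns. Each held 4 CAGAC matches and 1 TGACTCA match on either strand, none overlapping another, and all 5 stood at aligned positions in both. Of 32851 promoter windows of 300 bases, 49.6% held CAGAC at least once, 0.907% held it 4 or more times and 5.20% held TGACTCA. These motifs were chosen after the sequences had been read, and the cut of 4 is the count found in the pair. The windows are similar sequences of paralogs, so their shared matches are not 2 separate observations. A promoter window was matched for 8 of the 10 genes. Cst3 and Ctsz had 2 CAGAC matches each and Ctsl had 1, while the windows of Ctsc and Ctss held none of the letters searched. CACGTG, which reads the same on both strands and is the core of the lysosomal CLEAR element, was found 2 times in the Ctsd window and 1 time in that of Ctsl, against 7.15% of all windows with at least 1. A match describes letters in a window and was not tested as a binding site.

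The brighter Ctla2a probe set, 1416811_PM_s_at, read 8.97, 9.06 and 8.59 in GCM LN18, 8.54, 8.62 and 8.54 in GCM U87, and 7.04, 6.86 and 7.42 in control. Every treated array lay above every control array. The means were 8.87 ± 0.25 in GCM LN18, 8.56 ± 0.05 in GCM U87 and 7.11 ± 0.28 in control (SD, n = 3 each), which gives log2 fold changes of 1.77 and 1.46. Its second probe set, 1448471_PM_a_at, read 8.15, 8.54 and 8.04 in GCM LN18, 7.92, 8.51 and 8.08 in GCM U87, and 7.15, 6.16 and 7.10 in control. Here too the treated and control arrays did not overlap, and control replicate 2 lay 0.94 below the next lowest control array. The log2 fold changes of this probe set were 1.44 in GCM LN18 and 1.37 in GCM U87, or 2.71-fold and 2.58-fold.

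Ctla2b has 1 probe set, 1452352_PM_at. It read 10.05, 9.82 and 9.38 in GCM LN18, 9.62, 9.30 and 9.36 in GCM U87, and 7.35, 7.90 and 8.28 in control. The lowest treated array, GCM U87 replicate 2, lay 1.02 above the highest control array. The means were 9.75 ± 0.34 in GCM LN18, 9.43 ± 0.17 in GCM U87 and 7.84 ± 0.47 in control (SD, n = 3 each), and the log2 fold changes were 1.91 and 1.58. Taken by replicate number, the difference between GCM LN18 and control was 2.70, 1.92 and 1.10 for Ctla2b, and 1.93, 2.20 and 1.17 for Ctla2a. Replicate 3 had the smallest difference in both genes. Whether arrays of 1 number share a culture is not stated, so these differences describe the arrays and not pairs of dishes.

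The suffix _s_at marks probe sets whose probes can match transcripts of more than 1 gene, and the probe sequences were not used here. The signals of 1416811_PM_s_at can therefore hold RNA of both paralogs, and the parts of Ctla2a and Ctla2b in it were not told apart. The annotation gives each of the 3 Ctla2 probe sets 1 symbol. In bulk RNA a larger share of Ctla2-expressing cells and more Ctla2 RNA per cell cannot be told apart either. The genes were described in T cells and mast cells, and of 11 measured marker genes of these cells 10 lay below the median of all genes (4.34) and limma called 0 of them in either medium at an adjusted p under 0.05 (1 in each at a p under 0.05 before adjustment). The mean level of the 6 T cell markers was 3.40 to 3.47 in GCM LN18, 3.40 to 3.47 in GCM U87 and 3.42 to 3.47 in control. The marker above the median was the CD3 chain gene Cd3e. It read 5.22, 5.16 and 5.25 in GCM LN18, 5.10, 5.11 and 5.10 in GCM U87, and 5.21, 5.25 and 5.17 in control. The 5 mast cell markers averaged 2.77 to 2.84 in GCM LN18, 2.81 to 2.84 in GCM U87 and 2.78 to 2.81 in control.

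**Figure D1:**
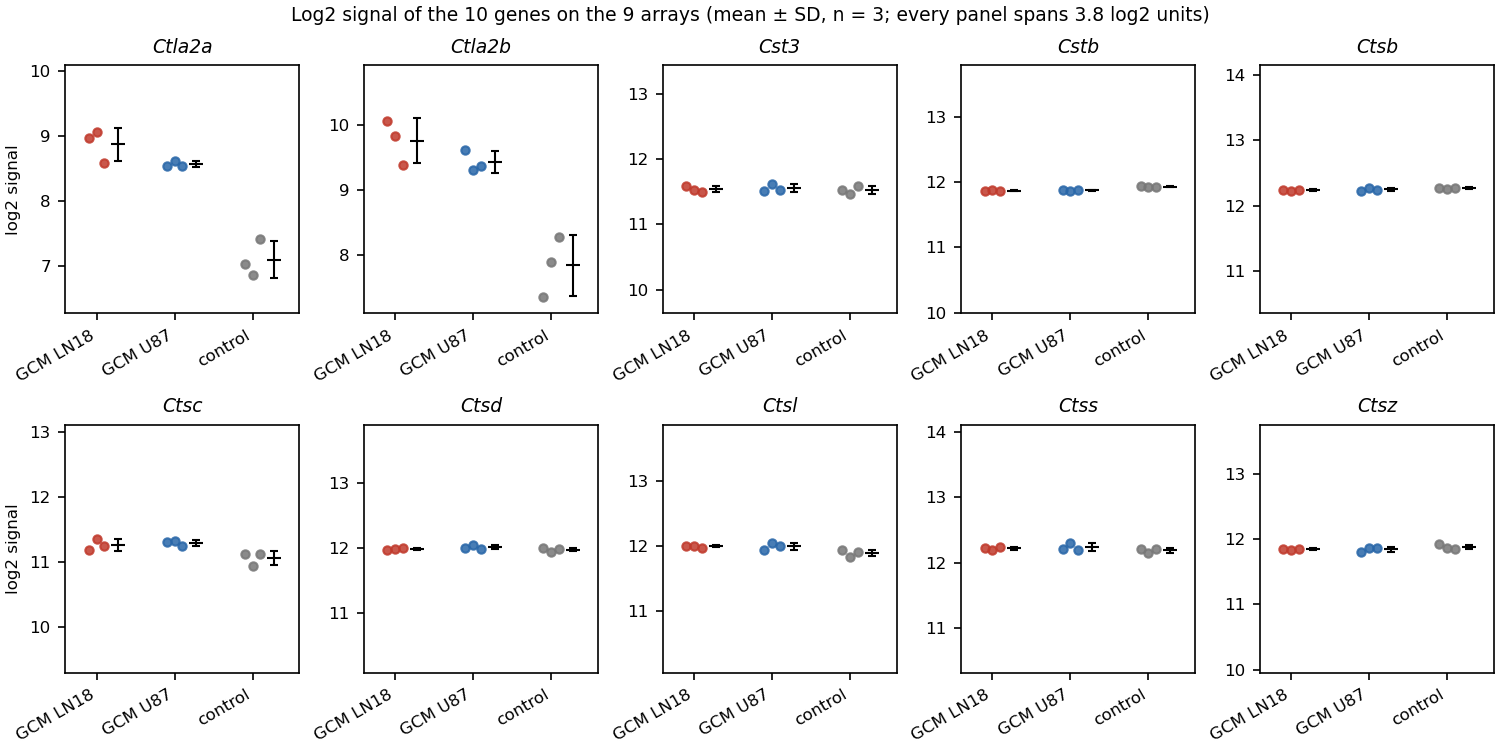
Log2 signal of the brightest probe set of each of the 10 genes on the 9 arrays, in red for GCM LN18, blue for GCM U87 and grey for control, with the mean ± SD (n = 3). All panels span the same number of log2 units, so the distance between groups can be compared by eye: the treated arrays stand clear of control for Ctla2a and Ctla2b, and the groups lie within 0.23 log2 units for the 8 cathepsins and cystatins.

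The 3 probe sets of Ctsc differed in how far they moved. The brightest, 1416382_PM_at, read 11.19, 11.36 and 11.25 in GCM LN18, 11.31, 11.33 and 11.25 in GCM U87, and 11.13, 10.94 and 11.13 in control. All 6 treated arrays lay above the control arrays. The log2 fold change was 0.20 in GCM LN18 (95% confidence interval 0.06 to 0.34, adjusted p = 0.115 from limma) and 0.23 in GCM U87 (0.08 to 0.37, adjusted p = 0.119), so neither passed. With the replicate number in the model as a block, which widens the intervals, they were 0.02 to 0.38 and 0.05 to 0.41.

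The probe set 1437939_PM_s_at of Ctsc read 7.45, 8.07 and 7.39 in GCM LN18, 7.51, 7.30 and 7.58 in GCM U87, and 6.44, 6.03 and 6.43 in control. The lowest treated array stood 0.86 above the highest control array. It rose by 1.34 in GCM LN18 (standard error 0.18, adjusted p = 0.00567 over all 28898 single-symbol probe sets from limma, 0.0328 with the replicate number as a block). In GCM U87 its log2 fold change was 1.16 (adjusted p = 0.0285, and 0.153 with the block). This probe set also has the suffix _s_at, so its signals can hold RNA of another gene, which was not checked.

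The dimmest Ctsc probe set, 1446834_PM_at, read 5.86, 6.47 and 5.88 in GCM LN18, 5.96, 5.57 and 5.58 in GCM U87, and 4.53, 4.31 and 4.90 in control. Again the treated arrays lay above control without overlap. It rose by 1.49 in GCM LN18 (standard error 0.20, adjusted p = 0.00521, 0.0302 with the block). In GCM U87 the log2 fold change was 1.12 (adjusted p = 0.0395, and 0.205 with the block). As background, 4.33% of all probe sets were called in GCM LN18 and 0.948% in GCM U87, and 0.574% and 0.0208% with the block. On both dim probe sets GCM LN18 replicate 2 was the highest array and control replicate 2 the lowest. Equal means of the replicate numbers tie these arrays to each other. Without GCM LN18 replicate 2, the log2 fold changes in GCM LN18 were 1.12 for 1437939_PM_s_at and 1.29 for 1446834_PM_at. Both passed in the fit without the block, and a fit with the block was not made there.

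**Figure D2:**
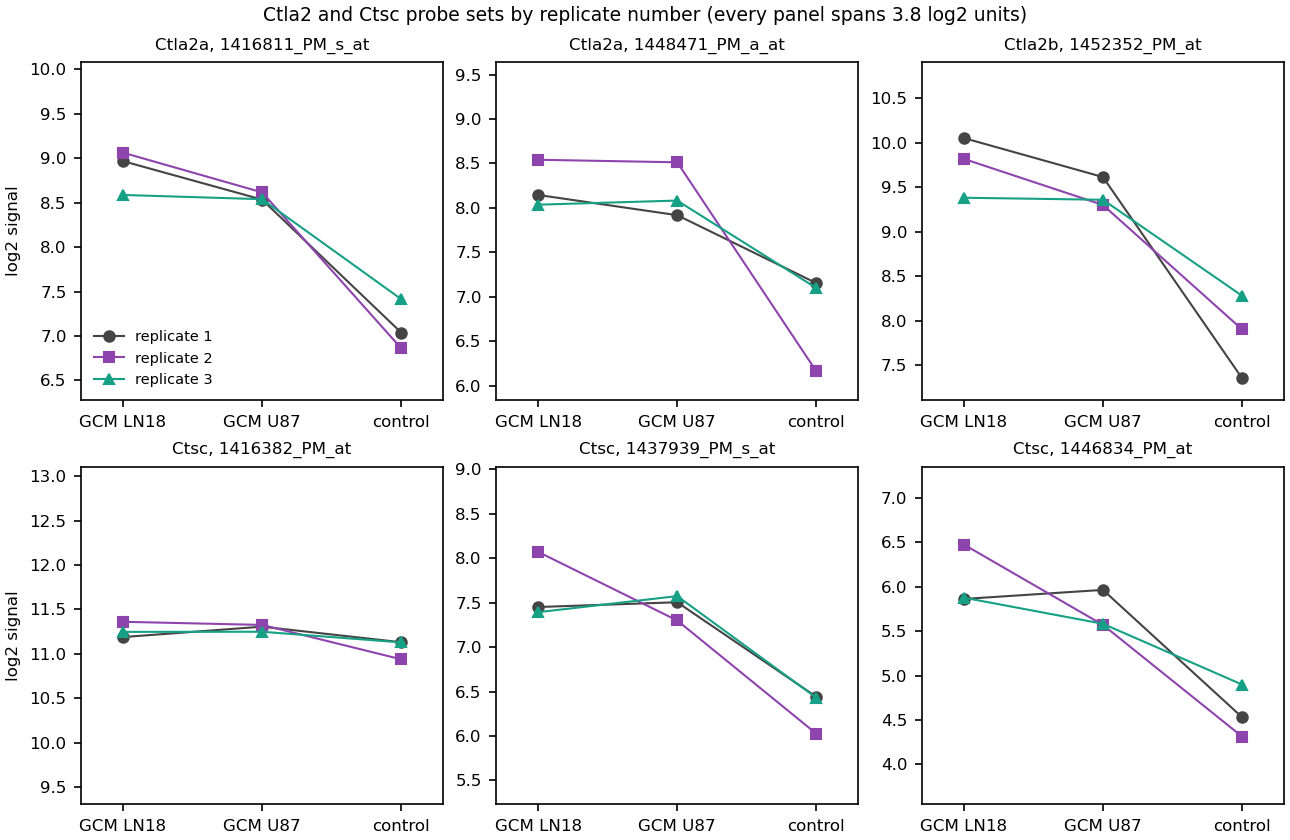
Log2 signal of the 3 Ctla2 probe sets (upper row) and the 3 Ctsc probe sets (lower row) in GCM LN18, GCM U87 and control, with a line for each replicate number, a label that is not stated to mark 1 culture. Every line ends lowest in control, and the brightest Ctsc probe set, 1416382_PM_at, has the flattest lines.

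Ctsl, an endopeptidase of the lysosome and the protease the Ctla2 proteins resemble in their propeptide, read 12.003, 11.997 and 11.974 in GCM LN18, 11.937, 12.046 and 11.997 in GCM U87, and 11.936, 11.832 and 11.904 in control. The treated arrays lay above the control arrays in both media, by 0.0011 at the narrowest point in GCM U87. The log2 fold change of Ctsl was 0.10 in each medium, with confidence intervals of 0.00 to 0.20 in GCM LN18 (adjusted p = 0.226) and 0.01 to 0.20 in GCM U87 (adjusted p = 0.266). With the block both intervals of Ctsl included 0, at -0.04 to 0.24 and -0.03 to 0.24. Its dim probe set 1457724_PM_at read 5.40, 5.68 and 5.42 in GCM LN18, 5.25, 5.15 and 5.57 in GCM U87, and 5.26, 5.08 and 4.92 in control. Only GCM LN18 stood clear of control, with a log2 fold change of 0.41 (adjusted p = 0.105), against 0.24 (adjusted p = 0.381) in GCM U87.

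Ctss, the cathepsin that trims the invariant chain in microglia and other antigen-presenting cells, read 12.23, 12.20 and 12.24 in GCM LN18, 12.21, 12.31 and 12.20 in GCM U87, and 12.21, 12.14 and 12.21 in control. The groups overlapped, and the log2 fold changes were 0.04 in GCM LN18 (adjusted p = 0.679) and 0.05 in GCM U87 (adjusted p = 0.548). Ctsd, the aspartic protease, read 11.974, 11.983 and 12.005 in GCM LN18, 11.998, 12.042 and 11.984 in GCM U87, and 11.998, 11.944 and 11.979 in control, with confidence intervals of the difference from -0.07 to 0.09 in GCM LN18 and from -0.04 to 0.11 in GCM U87 (-0.11 to 0.14 and -0.09 to 0.16 with the block). The groups overlapped for Ctsd as well (adjusted p = 0.868 and 0.659).

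Ctsb, which acts both as an endopeptidase and as a peptidyl-dipeptidase, had 4 probe sets. The one that stands for it, 1417490_PM_at, read 12.24, 12.22 and 12.24 in GCM LN18, 12.23, 12.27 and 12.24 in GCM U87, and 12.27, 12.25 and 12.27 in control. The log2 fold changes of -0.03 (adjusted p = 0.600) and -0.02 (adjusted p = 0.811) did not pass. Over the other 3 probe sets of Ctsb the log2 fold changes ran from -0.12 to 0.04 in GCM LN18 and from -0.02 to 0.06 in GCM U87, and 0 passed. The lowest of these, 1417491_PM_at, read 10.05, 10.05 and 10.03 in GCM LN18, against 10.18, 10.14 and 10.19 in control (adjusted p = 0.0868).

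Ctsz, a carboxypeptidase also called cathepsin X, read 11.84, 11.83 and 11.85 in GCM LN18, 11.80, 11.87 and 11.86 in GCM U87, and 11.92, 11.87 and 11.85 in control on the probe set that stands for it. Its log2 fold changes were -0.04 in both media (adjusted p = 0.637 and 0.649). The other 2 Ctsz probe sets gave -0.06 each in GCM LN18 and -0.03 and -0.01 in GCM U87, and 0 passed.

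Cst3, the secreted cystatin C, read 11.59, 11.53 and 11.50 in GCM LN18, 11.50, 11.62 and 11.53 in GCM U87, and 11.52, 11.46 and 11.58 in control. The groups overlapped, with log2 fold changes of 0.02 (95% confidence interval -0.09 to 0.13) in GCM LN18 and 0.03 (-0.08 to 0.14) in GCM U87. With the block the Cst3 intervals were -0.13 to 0.16 and -0.12 to 0.18. Cstb read 11.86, 11.88 and 11.87 in GCM LN18, 11.87, 11.86 and 11.88 in GCM U87, and 11.93, 11.93 and 11.92 in control. Every treated array lay below every control array, but by little: the log2 fold changes were -0.06 (adjusted p = 0.327) and -0.05 (adjusted p = 0.406). The second Cstb probe set, 1422507_PM_at, read 11.34, 11.37 and 11.39 in GCM LN18, 11.37, 11.39 and 11.31 in GCM U87, and 11.47, 11.42 and 11.48 in control. It too lay below control in both media, with log2 fold changes of -0.09 (adjusted p = 0.232) and -0.10 (adjusted p = 0.241).

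Counted together, 0 of the 8 cathepsins and cystatins passed limma's test in GCM LN18 and 0 in GCM U87, with or without the replicate block. The share of all 17097 genes that passed was 5.23% in GCM LN18 and 1.51% in GCM U87 (0.877% and 0.0468% with the block), so 0 of 8 is near the background. Before adjustment, 2 of the 8 had a p under 0.05 in each medium, Ctsc and Ctsl, against 20.6% of all genes in GCM LN18 and 17.0% in GCM U87. With the block this held for Ctsc alone in each medium, against 12.2% and 9.12% of all genes. The median log2 fold change of the 8 was 0.01 in GCM LN18 and 0.03 in GCM U87, against -0.0037 and -0.0026 over all genes. In GCM LN18, 4 of the 8 did not overlap with control, 2 above it (Ctsc and Ctsl) and 2 below it (Cstb and Ctsb), and in GCM U87 this held for Ctsc and Ctsl above and Cstb below. Over all genes, 23.9% did not overlap in GCM LN18 (11.1% above control and 12.8% below) and 19.1% in GCM U87 (8.79% above and 10.3% below).

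The 8 cathepsins and cystatins all had a mean signal above 11 on these arrays, where the highest value in the table is 12.88. Of all genes, 203 had a mean of at least 11. Their log2 fold changes had an SD of 0.07 in GCM LN18 and 0.06 in GCM U87 and ran from -0.28 to 0.34 and from -0.21 to 0.25, so 0 of them reached 2-fold in either medium. Among the 6300 genes with a mean from 5 to under 9 the SD was 0.21 and 0.17, and 26 and 16 genes reached 2-fold. At an adjusted p under 0.05, 1.48% of the 203 bright genes were called in GCM LN18 and 0 in GCM U87, and with the block 0 in either medium. Of these bright genes, 113 had further single-symbol probe sets, 217 in all. In each medium only 2 of the 217 were both called and at least 2-fold, and both belong to Ctsc (with the block, both were called in GCM LN18 and neither in GCM U87). This count is drawn from the same values as the Ctsc results above and adds no support to them. Whether the top of the signal scale narrows differences of bright probe sets was not tested.

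**Figure D3:**
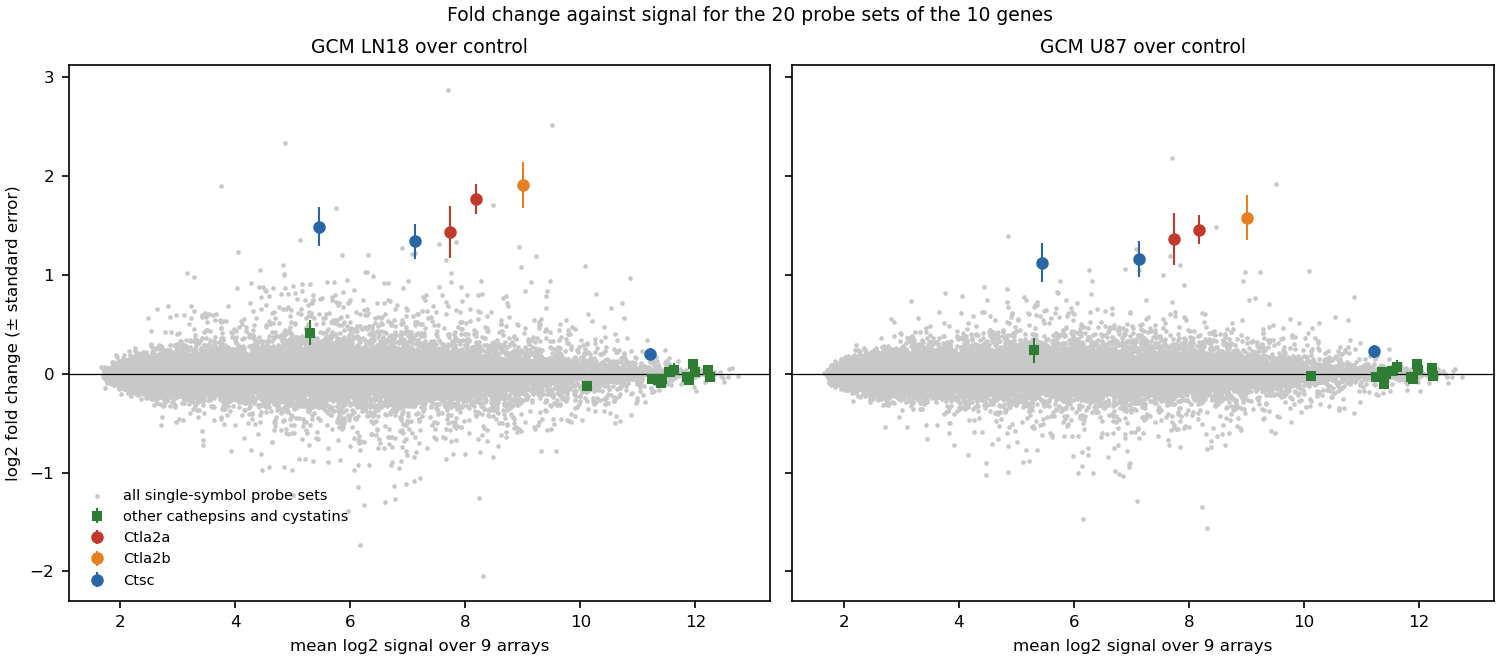
Log2 fold change over control (vertical axis, ± standard error for the 20 probe sets of the 10 genes) against the mean log2 signal over 9 arrays (horizontal axis), for GCM LN18 on the left and GCM U87 on the right, with all single-symbol probe sets in grey. The Ctla2 probe sets and the 2 dimmer Ctsc probe sets stand above 1, while the probe sets with a mean above 11 lie close to 0 and the grey cloud narrows there.

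Between the media, 0 of the 10 genes passed limma's test (0 also had a p under 0.05 before adjustment, and 0 passed with the block), against 0.00585% of all genes. On the probe sets that stand for the genes, the arrays of GCM LN18 and GCM U87 overlapped for all 10, whereas 17.4% of all genes did not overlap. Ctla2a had a difference of 0.31 between GCM LN18 and GCM U87 (95% confidence interval -0.03 to 0.64, adjusted p = 0.451), and Ctla2b one of 0.33 (-0.20 to 0.85, adjusted p = 0.598). With the block the intervals were -0.06 to 0.68 for Ctla2a and -0.25 to 0.90 for Ctla2b. The second Ctla2a probe set, 1448471_PM_a_at, gave a smaller difference of 0.07 (adjusted p = 0.941). By their means on the probe sets that stand for them, both genes were highest in GCM LN18, next in GCM U87 and lowest in control. The first and second of these do not differ beyond their spread. On the same probe sets, the intervals with the block leave room for a difference of up to 0.68 for Ctla2a and 0.90 for Ctla2b in favour of GCM LN18. For the 8 cathepsins and cystatins the differences ran from -0.03 to 0.00, and the interval of Ctsc, the widest of the 8, was -0.17 to 0.12 (-0.21 to 0.15 with the block). The dim Ctsc probe sets 1437939_PM_s_at and 1446834_PM_at gave 0.18 (adjusted p = 0.731) and 0.37 (adjusted p = 0.506).

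The genes whose profile lay closest to that of Ctla2a were found from the root mean square difference of log2 signals over the 9 arrays, each gene centred on its own mean. The closest was Olfml3, a secreted glycoprotein of microglia, at 0.184. Olfml3 read 8.99, 9.30 and 9.06 in GCM LN18, 8.79, 8.94 and 8.94 in GCM U87, and 7.64, 7.18 and 7.42 in control. Ctla2b came next at 0.228, followed by the chemokine gene Cxcl14 at 0.316, then Pald1 and AU020206 at 0.320 each. From Ctla2b, the closest genes were Ctla2a at 0.228, Pald1 at 0.360, the transporter gene Slco2b1 at 0.362, Olfml3 at 0.377 and AI504432 at 0.387. Ctla2a shared its lowest array, control replicate 2, with Olfml3, whereas the lowest of Ctla2b was control replicate 1. All of these genes were at least 2-fold higher than control in both media. The 9 arrays form 3 groups and the genes were compared on the same arrays, so a close profile includes the step between media and control that these genes have in common, and no test was made of it.

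**Figure D4:**
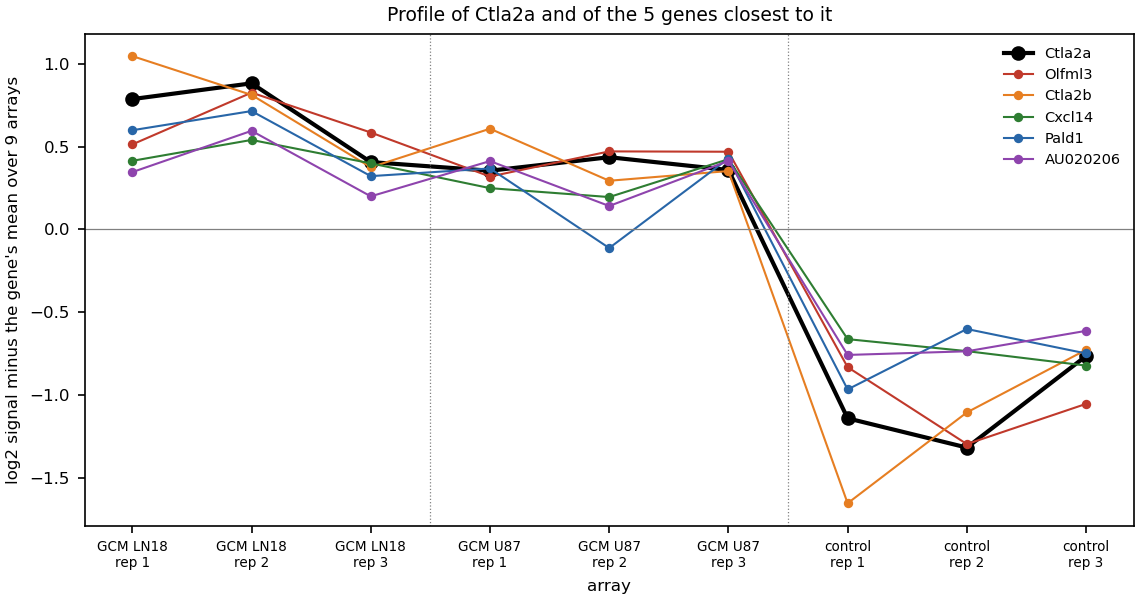
Log2 signal minus each gene's own mean over the 9 arrays (vertical axis) for Ctla2a in black and the 5 genes closest to it, by array, with GCM LN18, GCM U87 and control separated by dotted lines. All 6 genes are below their mean on the 3 control arrays, and Ctla2b reaches lowest on control replicate 1.

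Other genes of the same system were counted from 5 lists, 60 measured genes in all. In GCM LN18, limma called 0 higher and 1 lower (12 had a p under 0.05 before adjustment), and in GCM U87 it called 0 (9 before adjustment). With the block 0 passed in either medium, and 5 in each had a p under 0.05 before adjustment. Of all genes, 5.23% and 1.51% were called, and 20.6% and 17.0% had such a p (12.2% and 9.12% with the block), so the 60 genes were at or below the background on each of these counts. Their median log2 fold change was 0.01 in GCM LN18 and -0.01 in GCM U87. The 1 gene was Tlr7, the endosomal receptor for single-stranded RNA, which cathepsins cleave into its active form. Tlr7 read 8.52, 8.46 and 8.44 in GCM LN18, 8.69, 8.82 and 8.57 in GCM U87, and 8.84, 8.77 and 9.03 in control. Its log2 fold change was -0.40 in GCM LN18 (adjusted p = 0.0212, and 0.0975 with the block) and -0.19 in GCM U87 (adjusted p = 0.268).

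A list of 20 further genes, which holds other cathepsins, legumain and the cathepsin-related Tinag and Tinagl1, was measured in full, with 14 of the 20 below the median gene, and 0 were called (before adjustment, 4 had a p under 0.05 in GCM LN18, Tinag among them, and 3 in GCM U87). Ctsh and Ctsk had such a p in both media and were looked at after their values were seen. Ctsh, an aminopeptidase of the lysosome, read 9.81, 9.70 and 9.71 in GCM LN18, 9.65, 9.90 and 9.69 in GCM U87, and 9.51, 9.36 and 9.56 in control. Both media lay above control without overlap, at log2 fold changes of 0.26 (adjusted p = 0.0871) and 0.27 (adjusted p = 0.117). Ctsk, the collagen-degrading cathepsin K of bone-resorbing osteoclasts, read 4.33, 4.44 and 4.37 in GCM LN18, 4.39, 4.20 and 4.42 in GCM U87, and 4.56, 4.63 and 4.48 in control. Ctsk thus lay on the other side, below control without overlap in both media, at -0.18 (adjusted p = 0.168) and -0.22 (adjusted p = 0.141). Of 14 measured other cystatins and stefins, 13 lay below the median gene and 0 were called, with 1 at a p under 0.05 before adjustment in each medium. It was Cst7, also named after its values were seen, which encodes cystatin F, an inhibitor of Ctsc and other cathepsins in lysosomes. Cst7 read 6.42, 6.95 and 6.82 in GCM LN18, 6.79, 6.28 and 6.88 in GCM U87, and 7.47, 7.44 and 6.98 in control. Cst7 lay below control in both media, at -0.57 (adjusted p = 0.139) and -0.65 (adjusted p = 0.142). Among 5 serpins that act on cathepsins and 10 genes that sort lysosomal enzymes, 0 were called (before adjustment, 0 and 4 had a p under 0.05 in GCM LN18, and 1 and 2 in GCM U87).

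Of 10 listed microglia markers 9 were measured and 7 of these lay above the median gene. The other two were P2ry12, a purinergic receptor, and Tmem119, a membrane protein, both defining markers of microglia. P2ry12 read 3.98, 3.58 and 3.87 in GCM LN18, 3.63, 4.002 and 3.51 in GCM U87, and 3.36, 3.38 and 3.58 in control. Tmem119 read 4.77, 4.96 and 4.65 in GCM LN18, 3.96, 4.25 and 4.32 in GCM U87, and 4.12, 3.64 and 3.88 in control. Signals of different probe sets are not on 1 scale of abundance, so a low signal does not show that a marker was absent. The mean level of the 9 markers was 8.09 to 8.11 in GCM LN18, 7.94 to 8.10 in GCM U87 and 7.64 to 7.78 in control, with 4 higher in GCM LN18 and 2 in GCM U87 at an adjusted p under 0.05 (2 and 1 with the block). Those called were Cx3cr1, Tmem119, Fcrls and Aif1 in GCM LN18, and Cx3cr1 and Fcrls in GCM U87. With the block, Cx3cr1 and Tmem119 were left in GCM LN18 and Cx3cr1 in GCM U87. The markers not listed as called did not pass. Sall1 lay below control in both media, at -0.12 (adjusted p = 0.410) and -0.24 (adjusted p = 0.159). The part of the microglia markers in the differences of the Ctla2 genes and Ctsc was not tested. Of 40 markers of other cells in 8 lists, 35 lay below the median gene, 0 were higher in either medium, and 1, Mrc1 in the list of border macrophages, was lower in GCM LN18 (-0.25, adjusted p = 0.0375, and 0.182 with the block, which left 0). Mrc1 read 8.95 to 9.07 in GCM LN18, 8.92 to 9.01 in GCM U87 and 9.15 to 9.33 in control, and Pf4 of the same list read 9.24 to 9.33 in GCM LN18, 9.11 to 9.35 in GCM U87 and 8.90 to 9.06 in control. Both lay above the median gene. The markers named here were chosen after their values were seen. Array medians lay between 3.39 and 3.41. In the deposited table the arrays of replicate numbers 1, 2 and 3 have equal means for 100% of probe sets, within 1e-06. A fit of the groups alone then has 6 residual degrees of freedom where the values hold 4, and for that reason the adjusted p of a fit that also holds the replicate number (the block) is given beside the calls.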

How the data were processed

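RNA of untreated and GCM-treated microglia was measured on MG-430 PM strip arrays of Affymetrix, all run together. The authors deposited log2 signals per probe set, already normalized, from 1.56 to 12.88. The study's methods name RMA, a background correction, quantile normalization and summary in 1, for public microarray sets of a cross-species comparison, and whether it was run on these arrays is not given in the sources used here. The submitters' processing notes name limma. Of 45141 probe sets, 104 controls, 551 with several symbols and 15588 unnamed here were left out, which leaves 28898 and 17097 genes by the brightest probe set. Of the 28898, 28689 were matched to a current symbol. With limma 3.58.1 (R 4.3.3), a linear model with 1 mean per group was fitted over the 9 arrays. Benjamini-Hochberg adjustment ran over all genes, or over all probe sets for the further probe sets, with a threshold of 0.05. Arrays have no read depth, and 3 per group limit the precision. "Rose" is kept for probe sets that pass with and without the replicate block.

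The members and lists were chosen with earlier results of these data known. Besides the members, the 5 genes closest in profile to Ctla2a and to Ctla2b were named, and from each pathway list up to 2 called genes in each direction. Markers are given as counts and ranges. Ctsh, Ctsk, Cst7, Tinag and the markers named were chosen after their values were seen. Alternatives tried were a trended and robust eBayes, the replicate block, dim genes left out, any or the mean of the probe sets, only the groups compared, quantile normalization, array weights and each array left out. The fits of GCM LN18 against control were tested on simulated data built with equal replicate means, as in the deposited table. There the fit without the block made more false calls than its threshold allows and the fit with the block did not. That outcome follows from how the data were built and tests no other feature of the arrays. Promoter windows came from RefSeq (GRCm38.p6), and motifs were searched on both strands.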

Additional observations from a re-analysis of the deposited data

How the results depend on the processing

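The replicate block left 150 called genes in GCM LN18, against 894 without it, and 8 in GCM U87, against 259. The deviations of same-numbered arrays from their group means correlated at -0.72 to -0.06 over 9 pairs. Equal means of the replicate numbers force these deviations to sum to 0 over the 3 groups, so negative values follow and say nothing about pairing. The block ended the call of Tlr7 in GCM LN18 (0 list genes) and those of both dim Ctsc probe sets in GCM U87. It changed no other call of the 20 probe sets in the comparisons tested. Limits on precision come from 3 arrays per group.

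The count of cathepsins and cystatins called, 0 in each medium, was 1 in each with any probe set of a gene and 1 with the mean of its probe sets, Ctsc both times. With 1 array left out it was 0 in all 9 fits of each medium. The mean of the Ctsc probe sets gave 1.01 in GCM LN18 (adjusted p = 0.00567) and 0.84 in GCM U87 (adjusted p = 0.0328). The replicate block was not combined with any other setting, so no array was left out with it. The calls of 1437939_PM_s_at and 1446834_PM_at in GCM LN18 held in all 15 settings tried (adjusted p up to 0.0328 and 0.0302, with the block). In GCM U87 they held in 9 and 5 of 15 (adjusted p up to 0.153 and 0.205), and were lost without GCM U87 replicate 1, 2 or 3 or control replicate 1 or 2, and for 1446834_PM_at also without GCM LN18 replicate 1 or 3, with only the groups compared or with array weights. List genes called in GCM LN18 numbered 2 with dim genes left out (Tlr7 and Bid), 3 with any probe set (Tlr7, Bid and Tlr3), 0 with the mean of the probe sets and 0 to 2 with 1 array left out, Ctsh being the second without GCM U87 replicate 2 and Tlr7 being lost without GCM LN18 replicate 1, 2 or 3. Over all genes, leaving out 1 array gave 337 (without GCM LN18 replicate 2) to 856 in GCM LN18 and 32 (without GCM U87 replicate 1 or 3) to 229 in GCM U87. In GCM U87, 45 genes passed with only the groups compared and 153 with array weights.

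Small differences turned sign. Between GCM LN18 and GCM U87, any probe set and the mean of probe sets gave 0.0088 and 0.0022 for Cstb (0.012 with quantile normalization), 0.37 and 0.17 for Ctsc, 0.18 and 0.088 for Ctsl, and -0.0505 and -0.0250 for Ctsz. Against control, they gave 0.065 and 0.0095 for Ctsb in GCM U87, and quantile normalization gave 0.0050 for Ctsz probe set 1417870_PM_x_at. With 1 array left out, Cst3 ran from -0.0148 to 0.0476 in GCM LN18 and -0.00465 to 0.0626 in GCM U87, Ctsd from -0.00128 to 0.0253 in GCM LN18, Ctsb probe set 1417492_PM_at from -0.00444 to 0.0361 and Ctsz probe set 1417870_PM_x_at from -0.0187 to 0.00391 in GCM U87, and Ctsb probe set 1448732_PM_at from -0.0112 to 0.0706 in GCM LN18 and -0.0110 to 0.106 in GCM U87. Between the media the ranges were -0.0395 to 0.0209 for Cst3, -0.0753 to 0.0108 for Ctsc, -0.0304 to 0.0244 for Ctsl, -0.0378 to 0.0146 for Ctss, -0.0191 to 0.0144 for Ctsz, -0.0804 to 0.241 for Ctla2a probe set 1448471_PM_a_at, -0.0138 to 0.0235 for Cstb probe set 1422507_PM_at, -0.0648 to 0.0520 for Ctsb probe set 1448732_PM_at and -0.0374 to 0.302 for Ctsc probe set 1437939_PM_s_at. With any probe set the value is that of another probe set of the gene, which the mean of the probe sets includes. The cause of the other sign turns was not tested. The log2 fold changes of Ctla2a stayed within 1.65 to 1.92 in GCM LN18 and 1.34 to 1.61 in GCM U87, and those of Ctla2b within 1.66 to 2.13 and 1.33 to 1.80, when 1 array was left out. Over all values of single genes and probe sets under the alternatives, 905 kept their direction and, where tested, their side of the threshold, 35 turned sign, 16 lost a call and 4 gained one.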
